A study of Mus musculus with 6 samples.

Results

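Glycolysis and the response to low oxygen were followed through 35 genes in N2a cells after knockdown of circRtn4. The genes were chosen by name as glycolytic enzymes, glucose and lactate carriers, regulators of the hypoxia-inducible factors (HIFs) and HIF targets, and all 35 were found among the 54532 genes of the expression table. They fill 36 gene records, since Aldoa is listed under 2 gene identifiers. The rule names the genes by function and uses no measured value, although it was written with earlier results of these data known. By role they are 17 glycolytic enzymes, 6 carriers and pyruvate dehydrogenase kinases, 4 HIF regulators and 8 HIF targets.

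RNA sequencing of total RNA was carried out on 6 libraries of N2a, a cell line from a mouse neuroblastoma whose strain is given as C57BL/6. In 3 libraries the cells had received si-NC, the control siRNA, and in 3 they had received si-circRtn4, an siRNA against the circular RNA made from the Rtn4 gene. Both groups share the line, the growth medium (MEM with FBS) and the transfection, and the labels name no low-oxygen treatment. The study's general methods move transfected N2a cells to a medium with retinoic acid and less serum, which makes them differentiate, before harvest; the labels name the growth medium alone, so whether the sequenced cells were differentiated is not known here. N2a is 1 tumour line, so the groups model neurons only as far as that line does.

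In glycolysis, glucose enters through carriers of the Slc2a family, is split into pyruvate by a chain of cytosolic enzymes, and leaves as lactate through the monocarboxylate carriers of the Slc16a family. Pyruvate dehydrogenase kinases hold pyruvate back from the mitochondria. HIF-1α and HIF-2α are degraded in oxygen after prolyl hydroxylation by the Egln enzymes, and in low oxygen they bind hypoxia response elements and raise the transcription of many glycolytic genes, Vegfa, Adm and Bnip3. Neurons and neuron-like cells rely strongly on the glucose carrier Slc2a3, while Slc2a1 is the widely expressed carrier.

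Between 13541198 and 15122063 reads per library stood behind the FPKM values (fragment counts scaled by the listed gene length and by the library's total). circRtn4 has no row of its own in the table, so its knockdown could not be checked against the labels. All 10 neuroblastoma markers looked at had a mean of at least 1 FPKM, with summed levels of 1049 to 1162 FPKM for si-NC and 764 to 1057 FPKM for si-circRtn4. By the test used for the members, 2 of the 10 were lower, beside 4.82% of all genes tested, and 0 were higher (4.36%). The 2 were Phox2a (69.3% of control) and Gata2 (73.7%). Mycn lay above control without overlap (157%, limma adjusted p = 0.0527) and passed in 5 of the 14 settings run. Of 10 markers of fibroblasts, blood cells, endothelium, epithelium, glia and liver, 1 (Mbp) reached a mean of 1 FPKM and 1 was listed at 0 in every library. Their sum was 4.94 to 6.23 FPKM for si-NC against 4.32 to 6.67 FPKM for si-circRtn4. The part of these markers in the results was not tested. The short RNA gene Gm23935 took 20.1% to 20.7% of the summed FPKM under si-NC and 13.5% to 18.8% under si-circRtn4. Of the reads themselves it held 0.435% to 0.460% under si-NC and 0.272% to 0.409% under si-circRtn4. The labels do not say whether the libraries of a group came from separate cultures, so the p-values measure the spread between these libraries, which may be technical. In RNA from whole cultures, fewer cells of a kind and less RNA per cell cannot be told apart.

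The comparison of si-circRtn4 with si-NC asked which of these genes differ in RNA level when circRtn4 is silenced. Slc2a1, Eno1 and Vegfa rose, Slc2a3 and Adm fell, and the other 25 of 30 records tested did not pass. Log2 fold changes are differences of the mean log2(FPKM + 1), si-circRtn4 minus si-NC, tested with limma at an adjusted p of 0.05 over the 12749 genes that averaged 1 FPKM or more. 3 of 30 higher records stand beside 4.36% of all genes tested that were higher, and 2 of 30 lower beside 4.82%, and neither count is read as a feature of the members. The labels do not state that libraries of the same number are pairs. When the replicate number was added to the fit as a block, 6 records were higher (9.29% of all genes) and 6 lower (9.75%). The block added Eno2, Slc16a3 and Bnip3 to the higher and Pfkm, Aldoc, Ldha and Bnip3l to the lower. The values of the 3 libraries did not overlap between the groups for 9 records that were higher (16.2% of all genes tested) and 5 that were lower (15.5%). The median log2 fold change was 0.11 over the 30 records and 0.0020 over all genes tested. With 3 libraries against 3, an exact two-sided permutation test of 1 gene cannot give a p below 0.10.

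**Figure D1:**
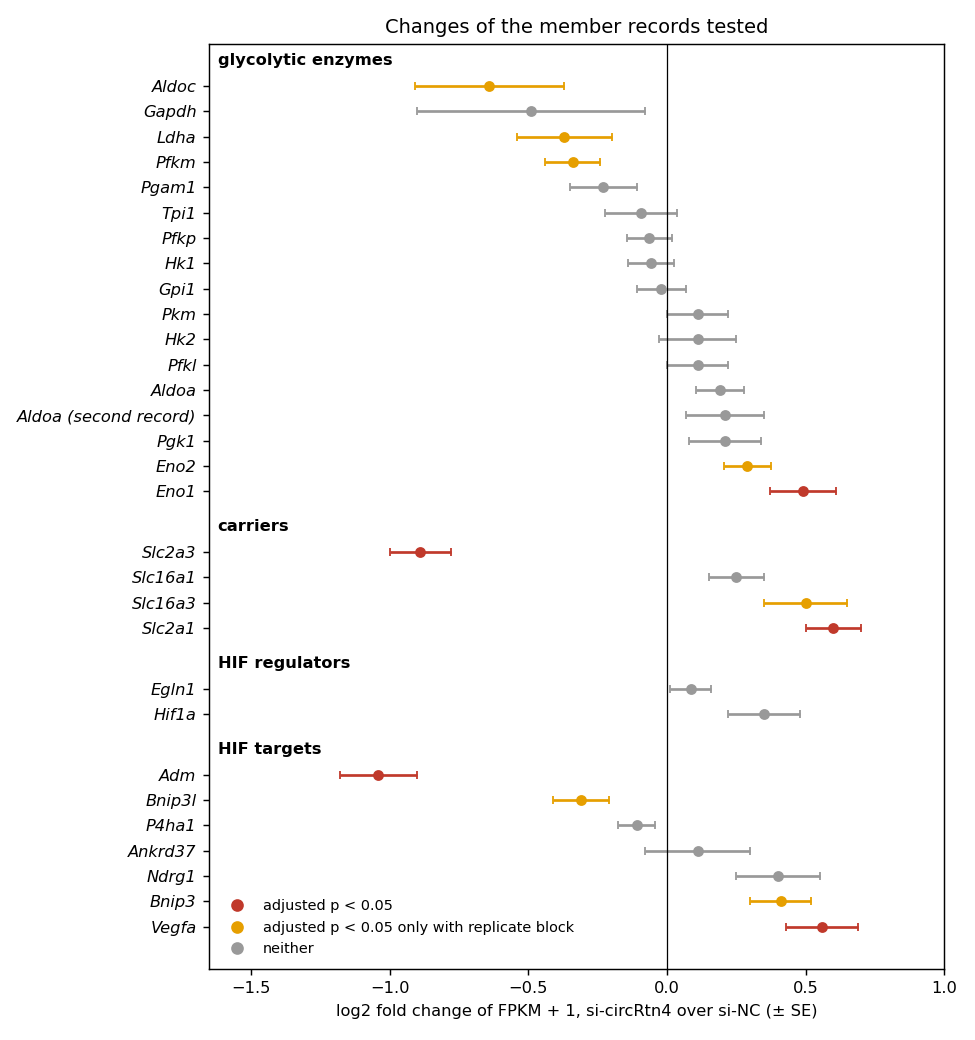
Log2 fold change of FPKM + 1 (x axis, si-circRtn4 over si-NC, bars ± SE) for each of the 30 member records tested, grouped by role. Red points (5 records) passed the adjusted p of 0.05, orange points passed only when the replicate number was a block, and grey points passed in neither fit; Adm at −1.04 and Slc2a3 at −0.89 lie farthest to the left, and Slc2a1 at 0.60 and Vegfa at 0.56 farthest to the right.

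The carriers at both ends of glycolysis held 1 gene that fell and 1 that rose among 4 tested, beside 4.82% and 4.36% of all genes tested. Slc2a3 (GLUT3, ENSMUSG00000003153, chromosome 6, 122727809 to 122801640, minus strand), the high-affinity glucose carrier of neurons, measured 33.3, 36.2 and 39.1 FPKM with si-NC, against 17.2, 17.7 and 22.5 FPKM with si-circRtn4. Every si-circRtn4 library lay below every si-NC library. The mean fell from 36.2 ± 2.89 to 19.1 ± 2.91 FPKM (SD, n = 3 each), or 52.8% of control, with a log2 fold change of −0.89 ± 0.11 (SE) and an adjusted p of 0.00553. Slc2a3 passed in all 14 settings run, with adjusted p from 0.000176 to 0.0295.

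Slc2a1 (GLUT1, ENSMUSG00000028645, chromosome 4, 119108711 to 119137983, plus strand), which carries basal glucose uptake in most cells, stood at 5.16, 5.42 and 6.64 FPKM with si-NC and at 8.62, 9.73 and 9.30 FPKM with si-circRtn4. All 3 knockdown libraries were above all 3 controls. The mean rose from 5.74 ± 0.793 to 9.22 ± 0.559 FPKM (SD, n = 3 each), 161% of control (log2 fold change 0.60 ± 0.10, SE, adjusted p = 0.0135). The call was lost without replicate 2 of si-NC (adjusted p = 0.0587) or of si-circRtn4 (0.0550) and when all detected genes were tested (0.0542). Slc2a3 remained the more abundant of the pair per listed gene length in every library.

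Within each library the share of Slc2a1 in the summed FPKM of both carriers was 13.4%, 13.0% and 14.5% with si-NC and 33.4%, 35.4% and 29.3% with si-circRtn4. The shares did not overlap, and the log2 ratio of Slc2a1 to Slc2a3 was 1.62 higher on average with si-circRtn4 (exact permutation p = 0.10, n = 3 each, the smallest possible). Since this ratio lies within 1 library, it does not depend on the scaling between libraries. The sum of both carriers was 41.9 ± 3.64 FPKM with si-NC and 28.3 ± 3.08 FPKM with si-circRtn4 (SD), a log2 difference of −0.55 (exact permutation p = 0.10, n = 3 each).

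The lactate carriers did not pass the test. Slc16a3 (MCT4), known as the lactate exporter of strongly glycolytic cells and as a HIF-1 target, measured 35.6, 36.2 and 48.4 FPKM with si-NC and 49.4, 54.9 and 65.8 FPKM with si-circRtn4. The highest control lay just under the lowest knockdown library. Its log2 fold change was 0.50 ± 0.15 (SE) with an adjusted p of 0.0801, and 0.00693 with the replicate block. Slc16a3 passed in 6 of the 14 settings run, the block included, with adjusted p from 0.00693 to 0.220. Slc16a1 (MCT1), which moves lactate either way, measured 49.9, 60.1 and 64.8 FPKM against 65.9, 71.6 and 70.4 FPKM (log2 fold change 0.25 ± 0.10, SE, adjusted p = 0.179). Slc16a1 was above Slc16a3 in each of the 6 libraries, by a factor of 1.34 to 1.66 with si-NC and 1.07 to 1.33 with si-circRtn4, and these ranges did not overlap. The sum of both was 98.3 ± 14.0 and 126 ± 10.5 FPKM (SD), a log2 difference of 0.36 (exact permutation p = 0.10, n = 3 each).

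The pyruvate dehydrogenase kinases were too low to be tested. Pdk1, a HIF-1 target, measured 0.324, 0.116 and 0.248 FPKM with si-NC and 0.732, 0.413 and 0.610 FPKM with si-circRtn4, from 78 and 200 reads in all. The groups did not overlap, and the exact permutation p was 0.10 (n = 3 each). Pdk3 was at 0 in all 6 libraries, where 3 reads would have given 0.0753 to 0.0837 FPKM.

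**Figure D2:**
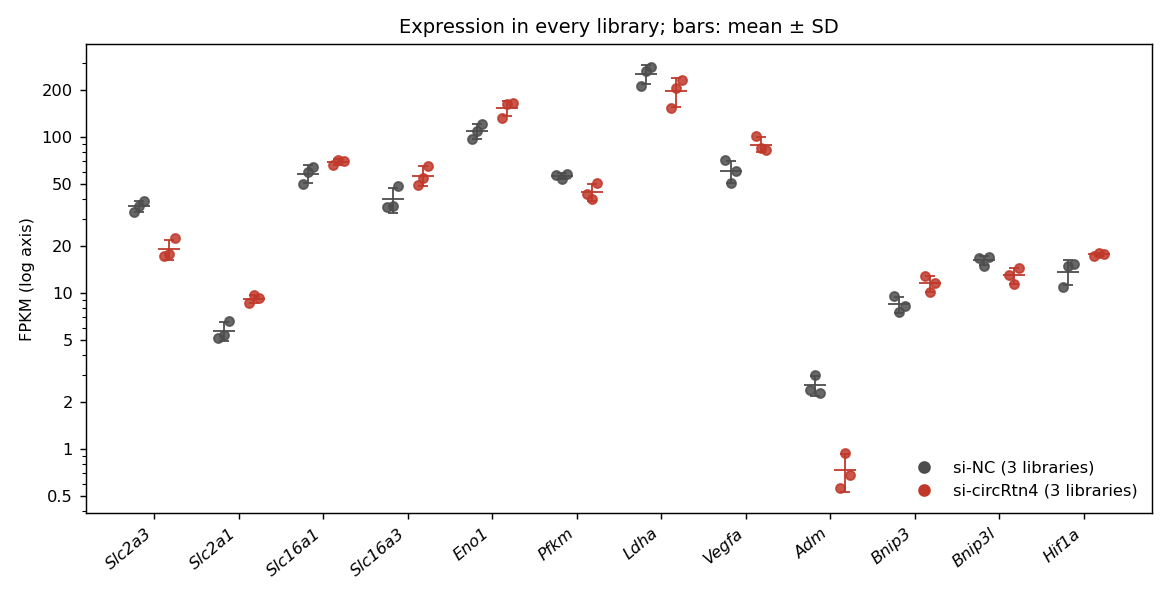
FPKM (y axis, log scale) in each of the 3 si-NC (grey) and 3 si-circRtn4 (red) libraries for 12 members, with the mean ± SD as bars. The red points lie below the grey for Slc2a3, Pfkm, Adm and Bnip3l, above them for Slc2a1, Slc16a1, Slc16a3, Eno1, Vegfa, Bnip3 and Hif1a, and among them for Ldha.

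Among the glycolytic enzymes, 1 of 17 records tested rose (4.36% of all genes tested), none fell (4.82%) and 16 did not pass. With the block 2 were higher (9.29%) and 3 lower (9.75%). At an unadjusted limma p under 0.05, 2 enzymes were higher (13.1% of all genes tested) and 2 lower (12.8%), and limma-voom on the recovered reads called 2 higher (7.08% of all genes) and 1 lower (5.66%). Their median log2 fold change was −0.020. The FPKM of all 18 enzyme records summed to 1393 ± 118 with si-NC and 1411 ± 159 with si-circRtn4 (SD), a log2 difference of 0.015 (exact permutation p = 0.90, n = 3 each). This sum leaves out Eno1b, a near-identical copy of Eno1, and includes Gapdh at an uncertain level, both described below.

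Eno1 (α-enolase, ENSMUSG00000063524, chromosome 4, 150236721 to 150248879, plus strand), which makes phosphoenolpyruvate, was the enzyme that rose. It measured 97.3, 109 and 122 FPKM with si-NC and 133, 162 and 166 FPKM with si-circRtn4. The groups did not overlap, and the mean went from 109 ± 12.3 to 154 ± 18.2 FPKM (SD, n = 3 each; log2 fold change 0.49 ± 0.12, SE, adjusted p = 0.0453). The call was lost when all detected genes were tested (adjusted p = 0.133) and when any library other than si-circRtn4 replicate 1 was left out (0.0561 to 0.139). Eno1b, a nearly identical copy of retrotransposed origin whose reads cannot be told from those of Eno1 with certainty, measured 108, 126 and 139 FPKM against 144, 187 and 186 FPKM (log2 fold change 0.46, adjusted p = 0.0728). Summed, both gave 206, 235 and 261 FPKM with si-NC and 277, 349 and 352 FPKM with si-circRtn4. That sum did not overlap either, with a log2 difference of 0.48 (exact permutation p = 0.10, n = 3 each). The neuronal enolase Eno2 measured 12.8, 11.9 and 14.6 FPKM against 15.9, 16.2 and 16.4 FPKM (log2 fold change 0.29 ± 0.086, SE, adjusted p = 0.0821, and 0.0414 with the block).

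Phosphofructokinase, which commits sugar to glycolysis, is built from 3 kinds of subunit. Pfkm, the muscle-type subunit and the highest of the 3 here in FPKM, measured 57.4, 53.6 and 58.1 FPKM with si-NC and 42.9, 39.9 and 50.5 FPKM with si-circRtn4. The groups did not overlap, but the log2 fold change of −0.34 ± 0.10 (SE) had an adjusted p of 0.0726, and 0.0236 with the block. The liver-type Pfkl (log2 fold change 0.11) and the platelet-type Pfkp (−0.064, and 0.026 with TPM) overlapped between the groups. The ratio of Pfkl to Pfkm in a library was 0.393, 0.442 and 0.470 with si-NC and 0.533, 0.683 and 0.584 with si-circRtn4. These ratios did not overlap and differed by 0.46 on the log2 scale (exact permutation p = 0.10, n = 3 each). The 3 subunits together measured 111 ± 5.80 and 100 ± 9.92 FPKM (SD, log2 difference −0.16, exact permutation p = 0.30, n = 3 each). Their order and sum rest on the listed gene lengths. Pfkp, listed at 13401 bases, had 17780 reads over the si-NC libraries, and Pfkm, listed at 3340 bases, had 8189.

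Ldha, which turns pyruvate into lactate, was the enzyme record with the highest mean in the si-NC libraries, at 214, 267 and 280 FPKM, against 153, 206 and 234 FPKM with si-circRtn4. The groups overlapped, while each si-circRtn4 library was below the si-NC library of the same number. The log2 fold change was −0.37 ± 0.17 (SE), with an adjusted p of 0.219, and 0.0208 with the block. Ldhb, which favours the reverse reaction, had 1 read in the 6 libraries, where 3 reads would be 0.123 to 0.137 FPKM. The brain-type aldolase Aldoc measured 3.43, 2.51 and 4.66 FPKM against 1.40, 1.24 and 3.29 FPKM. It overlapped between the groups in the same way as Ldha, with a log2 fold change of −0.64 ± 0.27 (SE), an adjusted p of 0.190, and 0.0217 with the block.

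The remaining enzymes did not pass in either fit. The main record of Aldoa, the aldolase of most tissues, measured 208 to 231 FPKM with si-NC and 229 to 264 FPKM with si-circRtn4 (log2 fold change 0.19), and its second record 5.56 to 7.87 and 7.06 to 9.09 FPKM (0.21). Pgk1, which makes the first ATP of the pathway, had means of 105 and 122 FPKM (0.21), and Pkm, the pyruvate kinase, 203 and 219 FPKM (0.11). Pgam1, the phosphoglycerate mutase, went the other way with 118 and 101 FPKM (−0.23). The hexokinases Hk1 (29.9 and 28.8 FPKM) and Hk2 (15.3 and 16.5 FPKM), Gpi1 (87.7 and 86.7 FPKM) and Tpi1 (116 and 109 FPKM) had log2 fold changes from −0.093 to 0.11, and with TPM Hk1 (0.033) and Gpi1 (0.072) changed sign.

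Gapdh was listed at 1.60, 8.16 and 2.44 FPKM with si-NC and 1.89, 2.47 and 1.96 FPKM with si-circRtn4, far under its neighbours Tpi1 and Pgk1 in the pathway. 1 library, si-NC replicate 2, stood above the rest, and the log2 fold change of −0.49 was 0.050 without it. Gapdh has many processed pseudogenes in the mouse genome, and how reads with several matches were counted is not given in the sources used here. Its level and those of Eno1, Aldoa, Ldha, Pgk1, Tpi1, Pgam1 and Pkm, which also have near-identical copies, are uncertain to that extent.

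**Figure D3:**
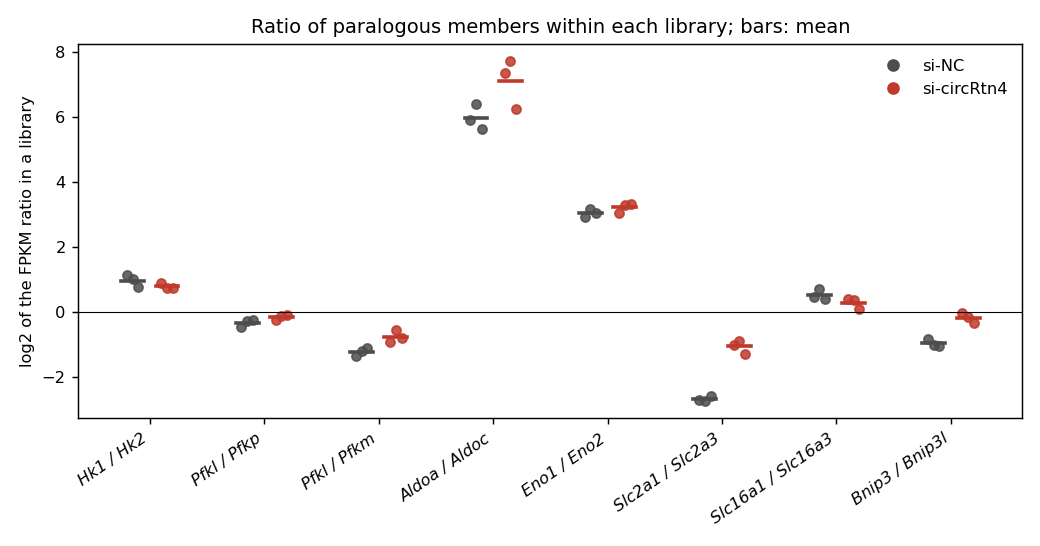
Log2 ratio of the FPKM of paired members within each library (y axis) for the 8 pairs with both genes at a mean of at least 1 FPKM, si-NC in grey and si-circRtn4 in red, with the group mean as a bar. The groups are apart for Slc2a1 over Slc2a3, Bnip3 over Bnip3l, Pfkl over Pfkm and, by the smallest margin, Slc16a1 over Slc16a3, and overlap in the other 4 pairs.

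Of the HIF regulators, neither of the 2 that could be tested passed, in either limma fit. At an unadjusted p under 0.05, and by limma-voom, 1 of them (Hif1a) was higher. Hif1a, the oxygen-regulated subunit of HIF-1, measured 10.9, 15.0 and 15.4 FPKM with si-NC and 17.2, 18.2 and 17.7 FPKM with si-circRtn4. The groups did not overlap (log2 fold change 0.35 ± 0.13, SE, adjusted p = 0.129, and 0.0535 with the block). HIF-1α is set mainly through protein stability, which RNA levels do not show. Epas1, which encodes HIF-2α, had 9 reads over the si-NC libraries and 0 over the si-circRtn4 libraries, where 3 reads in a library would be 0.0363 to 0.0404 FPKM. The prolyl hydroxylase Egln1, the main oxygen sensor of the pathway, averaged 49.5 and 52.6 FPKM (log2 fold change 0.085). Egln3, a hydroxylase that HIF itself induces, was at 0 in 5 libraries and at 0.211 FPKM, or 8 reads, in si-circRtn4 replicate 1.

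The HIF targets held 1 gene that rose and 1 that fell among 7 tested, beside 4.36% and 4.82% of all genes tested. Their median log2 fold change was 0.11. Vegfa (ENSMUSG00000023951, chromosome 17, 46016993 to 46032369, minus strand), the growth factor of blood vessels, measured 70.9, 51.1 and 60.3 FPKM with si-NC and 101, 84.9 and 83.2 FPKM with si-circRtn4. The lowest knockdown library was above the highest control. The mean rose from 60.8 ± 9.88 to 89.8 ± 10.0 FPKM (SD, n = 3 each), 148% of control (log2 fold change 0.56 ± 0.13, SE, adjusted p = 0.0404). The call was lost with quantile normalization (adjusted p = 0.0535), when all detected genes were tested (0.125), without si-NC replicate 2 (0.114) or 3 (0.0989), and without si-circRtn4 replicate 1 (0.110), 2 (0.0947) or 3 (0.0706).

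Adm (ENSMUSG00000030790, chromosome 7, 110627661 to 110629820, plus strand), which encodes the vasodilator peptide adrenomedullin, measured 2.41, 3.00 and 2.30 FPKM with si-NC and 0.564, 0.952 and 0.680 FPKM with si-circRtn4. All knockdown libraries were below all controls, on 181 reads against 53. The mean fell from 2.57 ± 0.376 to 0.732 ± 0.199 FPKM (SD, n = 3 each), 28.5% of control. The log2 fold change of FPKM + 1 was −1.04 ± 0.14 (SE, adjusted p = 0.00727), and it understates the change of a gene this low. Adm reached the tested mean of 1 FPKM through the si-NC libraries, since its si-circRtn4 mean lay under it, and it passed in all 14 settings run, the test of all detected genes included.

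Bnip3 and Bnip3l, related mitochondrial proteins that mark mitochondria for removal and are both induced by HIF-1, lay on opposite sides of no change. Bnip3 measured 9.57, 7.53 and 8.30 FPKM with si-NC and 12.9, 10.2 and 11.6 FPKM with si-circRtn4 (log2 fold change 0.41 ± 0.11, SE, adjusted p = 0.0620, and 0.00975 with the block). Bnip3l measured 16.8, 15.0 and 17.0 FPKM against 13.1, 11.4 and 14.5 FPKM (−0.31 ± 0.10, SE, adjusted p = 0.104, and 0.0239 with the block). Neither gene overlapped between the groups. Their ratio within a library was 0.568, 0.503 and 0.488 with si-NC and 0.991, 0.899 and 0.799 with si-circRtn4, a log2 difference of 0.78 (exact permutation p = 0.10, n = 3 each).

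Ndrg1, a stress-response gene, measured 0.773, 0.641 and 1.09 FPKM with si-NC and 1.64, 1.39 and 1.22 FPKM with si-circRtn4. It reached the tested mean through the si-circRtn4 libraries. Its groups did not overlap, but it did not pass (log2 fold change 0.40 ± 0.15, SE, adjusted p = 0.153). The mean of 1.42 FPKM with si-circRtn4 was 170% of control, and the log2 fold change of FPKM + 1 understates this. By limma-voom Ndrg1 was higher (0.80, adjusted p = 0.0339), its only call in the 14 settings. P4ha1, a collagen prolyl hydroxylase, averaged 17.5 and 16.1 FPKM, also without overlap (−0.11). Ankrd37 averaged 1.59 and 1.85 FPKM (0.11), and Car9, the membrane carbonic anhydrase used as a hypoxia marker, averaged 1.03 and 0.698 FPKM and was not tested.

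HIF binds a core of ACGTG or GCGTG, so the window from 250 bases before to 50 after each RefSeq gene start (GRCm38.p6) was searched for both on both strands. A promoter was found for 31 of the 35 members, 44 promoters in all; none was listed for Slc2a3, Bnip3l, Epas1 and Ndrg1. ACGTG was in 24 of the 44 (54.5%), against 25.8% of the 11335 promoters of tested genes and 19.6% of all 32851 promoters. Either core was in 35 of the 44 (79.5%), against 63.0% and 43.8%. Several members contribute more than 1 promoter and some of these overlap, and CACGTG counts on both strands. The members were chosen in part as HIF targets, so a higher share may come with that choice, which was not tested. The 44 also include promoters of members too low to be tested. For 34 of the 44, the bases just after the start were found in an annotated protein-coding transcript of the gene. The matches are letters in a window and not measured binding sites. Windows of 25 bases are shown for the called members and for those that passed with the block, in the direction of the gene with the core in capitals (CACGT and CACGC are the cores read from the other strand). Both matches of Slc2a1 and of Adm are shown. For the others 1 is shown of 6 in Eno1, 2 in Vegfa, 5 in Bnip3, 2 in Slc16a3, 6 in Pfkm, 4 in Aldoc and 9 in Ldha, matches being counted again where listed promoters overlap, and Eno2 had none.
Slc2a1 (chr4:119108699-119108723, plus strand): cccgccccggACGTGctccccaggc
Slc2a1 (chr4:119108674-119108698, plus strand): cccacagaacCACGCctctcagagt
Eno1 (chr4:150237101-150237125, plus strand): ccgcctcggtCACGCtcttctattg
Vegfa (chr17:46025360-46025384, minus strand): agtgcgtgccCACGTcagagagcaa
Adm (chr7:110627557-110627581, plus strand): tagaagcaagCACGCtggagaggga
Adm (chr7:110627593-110627617, plus strand): caaatctgacCACGCccaccgtccg
Bnip3 (chr7:138909599-138909623, minus strand): cacgcgccgcACGTGccacacgctc
Slc16a3 (chr11:120949030-120949054, plus strand): ggcagcggtgACGTGcgcgggggac
Pfkm (chr15:98092444-98092468, plus strand): taagtatgccACGTGaagtaagtaa
Aldoc (chr11:78323090-78323114, plus strand): cccagggagtCACGTagctctgcgg
Ldha (chr7:46845746-46845770, plus strand): gcccagcctaCACGTgggttcccgc

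Slc2a1 and Vegfa, which rose, held ACGTG in a listed promoter, while Eno1, which rose, and Adm, which fell, held only GCGTG. The Vegfa core lies at the second of its listed starts, which is inside the gene record (46016993 to 46032369). The other listed Vegfa promoter held neither core. Of the members that passed with the block, ACGTG was in Bnip3 and Slc16a3, which were higher, and in Pfkm, Aldoc and Ldha, which were lower, while Eno2, which was higher, held neither core.

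The study relates circRtn4 to the microRNA miR-24-3p, and the siRNA itself can pair with other transcripts through its seed, bases 2 to 8. These are the microRNA and the strand complementary to the siRNA sequence listed by the study, with the seed in capitals.
miR-24-3p: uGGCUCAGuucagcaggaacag
si-circRtn4 guide: aAAAGGGTctcatctgaag

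The longest annotated 3′ UTR (GENCODE M21) of 8 of 30 member records (26.7%) held a match to the miR-24-3p seed, CTGAGCC, against 19.6% of 10694 genes. These were Pfkl, Tpi1, Eno2, Pkm, Slc16a1, Slc16a3, Adm and P4ha1, of which Adm fell and 7 did not pass. Of these 7, Eno2 and Slc16a3 were higher with the block (adjusted p = 0.0414 and 0.00693) and by limma-voom (0.0352 and 0.0139). Pfkl, Tpi1, Pkm, Slc16a1 and P4ha1 passed in none of the 14 settings. A match to the siRNA seed, ACCCTTT, was in 3 of 30 (10.0%), against 12.5% of genes: Slc2a3, which fell, and Slc16a1 and Slc16a3, which lay above control. The part of either seed in the changes was not tested. Slc16a1 also held miR-24-3p seed matches at bases 961 and 2338 and Slc16a3 at base 249, which are not shown. The sites of the called genes and the siRNA seed sites of the lactate carriers are given as 21 bases of the transcript with the site in capitals.
Slc2a3, siRNA seed site, base 1832 of a 3′ UTR of 2122: atttcagACCCTTTaggcaaa
Adm, miR-24-3p seed site, base 199 of 652: caggggtCTGAGCCactgcct
Slc16a1, siRNA seed site, base 1267 of 2740: tttcatgACCCTTTcactcac
Slc16a3, siRNA seed site, base 607 of 2736: gagtcccACCCTTTgttaaat

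Other genes of the same pathways were looked at through 7 lists with 117 records, of which 82 were tested. Of these, 8 rose, where 4.36% of all genes tested were higher, and 4 fell, where 4.82% were lower, with a median log2 fold change of −0.016. With the block 13 were higher and 12 lower, beside 9.29% and 9.75% of all genes. Genes that passed only with the block are named after their values were seen. None of 13 other glycolytic isozymes and regulators and none of 6 other glucose and lactate carriers passed (medians −0.074 and −0.14), nor did 8 genes of glycogen and gluconeogenesis (0.024). With the block, 1 isozyme gene was higher, Tigar, a phosphatase that slows glycolysis (log2 fold change 0.36, adjusted p = 0.0217), and 1 lower, the muscle mutase Pgam2 (−0.50, adjusted p = 0.0136). Of the glycogen and gluconeogenesis genes the block called 3 higher, Gys1, Pygl and Pck2 (adjusted p 0.0171 to 0.0290), and 2 lower, Ugp2 and G6pc3 (0.0460 and 0.0454). At an unadjusted limma p under 0.05 these 3 lists had 1, 0 and 3 genes higher (13.1% of all genes) and 2, 1 and 2 lower (12.8%), and limma-voom called 1, 0 and 2 higher and 0 lower in each. Of 11 genes for the entry of pyruvate into mitochondria, 1 fell, Dlat, the acetyltransferase of the pyruvate dehydrogenase complex, from 23.0 ± 1.83 to 17.6 ± 1.15 FPKM (SD, n = 3 each, without overlap; log2 fold change −0.37, adjusted p = 0.0403). Dlat lost the call in 7 of the 14 settings run, among them without si-NC replicate 2 or 3 and without any one of the si-circRtn4 libraries (adjusted p 0.0643 to 0.133). With the block Mpc1, a subunit of the mitochondrial pyruvate carrier, was lower as well (−0.39, adjusted p = 0.0484), its only call in the 14 settings. Mpc2 lay above control without overlap (0.28, adjusted p = 0.0764, 0.0669 with the block and 0.0400 by limma-voom). At an unadjusted limma p under 0.05 this list of 11 had 1 gene higher (13.1% of all genes) and 4 lower (12.8%). By limma-voom 1 was higher (7.08%) and 1 lower (5.66%).

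The pentose phosphate pathway, which draws glucose 6-phosphate away from glycolysis to make NADPH and ribose, had 3 of 7 tested genes higher, beside 4.36% of all genes, and none lower, with a median log2 fold change of 0.32. At an unadjusted limma p under 0.05 (13.1% of all genes higher), by limma-voom (7.08%) and with the block (9.29%), 4 were higher and 0 lower, and the gene added by the block was Tkt, the transketolase (0.32, adjusted p = 0.0318). Taldo1, the transaldolase, measured 29.3, 33.7 and 37.2 FPKM with si-NC and 57.5, 60.5 and 62.4 FPKM with si-circRtn4. Its groups were far apart (log2 fold change 0.84, adjusted p = 0.00364), and it passed in all 14 settings. G6pdx, the entry enzyme of the pathway, measured 34.5, 36.8 and 39.1 FPKM against 49.7, 54.3 and 53.2 FPKM (0.50, adjusted p = 0.0108). Rpia, the ribose 5-phosphate isomerase, measured 3.87, 3.62 and 4.03 FPKM against 5.76, 5.96 and 5.74 FPKM (0.50, adjusted p = 0.0106). Neither of these overlapped between the groups, and both missed the threshold without si-NC replicate 2 (adjusted p = 0.0518 and 0.0522).

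Of 14 further genes of the HIF machinery, 2 rose and none fell (median −0.0027), beside 4.36% and 4.82% of all genes tested. At an unadjusted limma p under 0.05, 2 were lower (12.8% of all genes), against 0 by limma-voom (5.66%) and 1 with the block (9.75%). That gene was Rbx1, the RING subunit of the VHL ubiquitin ligase (−0.33, adjusted p = 0.0140 with the block). Siah2, a ubiquitin ligase that removes Egln hydroxylases, measured 16.2, 14.5 and 13.5 FPKM with si-NC and 27.5, 26.3 and 23.8 FPKM with si-circRtn4 (log2 fold change 0.77, adjusted p = 0.00385), and passed in all 14 settings. Cited2, which competes with HIF-1α for its coactivators, measured 11.5, 12.8 and 12.4 FPKM against 15.6, 20.7 and 17.7 FPKM (0.51, adjusted p = 0.0280), and missed the threshold in 6 of the settings, among them without any one of the si-NC libraries (adjusted p 0.0691 to 0.0744).

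Of 23 other hypoxia-response genes tested, 3 rose and 3 fell (median 0.038), beside 4.36% and 4.82% of all genes tested. With the block 3 were higher and 6 lower, beside 9.29% and 9.75% of all genes. It added P4ha2, Wsb1 and Pgf to the lower (adjusted p 0.00639 to 0.0227). Hmox1, the heme oxygenase, which is also a target of the oxidative-stress factor NRF2, measured 21.6, 18.1 and 23.8 FPKM against 38.7, 49.9 and 32.3 FPKM (log2 fold change 0.89, adjusted p = 0.0192). Ero1l, an oxidase of the endoplasmic reticulum, measured 20.1, 17.8 and 26.0 FPKM against 33.1, 30.0 and 33.5 FPKM (0.59, adjusted p = 0.0342). Stc2, a secreted glycoprotein, measured 4.81, 3.74 and 4.49 FPKM against 6.53, 6.23 and 6.42 FPKM (0.47, adjusted p = 0.0246). All 3 were without overlap between the groups. None of the 3 passed when all detected genes were tested (adjusted p 0.0787, 0.108 and 0.0831 in that order). Each lost the call when si-NC replicate 2 or si-circRtn4 replicate 1 was left out (adjusted p 0.0590 to 0.0995), as did Ero1l without si-NC replicate 1 (0.0820), Stc2 without si-NC replicate 3 (0.0602), and both without si-circRtn4 replicate 2 or 3 (0.0677 to 0.0948).

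On the other side, Car12, a carbonic anhydrase of the cell surface, measured 5.43, 5.56 and 6.72 FPKM with si-NC and 1.87, 2.17 and 3.26 FPKM with si-circRtn4 (log2 fold change −1.02, adjusted p = 0.0106, and 0.0546 when all detected genes were tested). Jmjd6, an oxygen-dependent hydroxylase, measured 24.8, 25.0 and 25.0 FPKM against 16.5, 18.7 and 18.3 FPKM (−0.46, adjusted p = 0.0113, and 0.0547 without si-NC replicate 2). Mxi1, an antagonist of Myc, measured 12.6, 11.3 and 11.9 FPKM against 9.51, 8.42 and 9.62 FPKM (−0.35, adjusted p = 0.0393). It lost the call without any one of the 6 libraries (adjusted p 0.0708 to 0.115). So it did with TPM (0.115), TPM without Gm23935 (0.0566) and all detected genes (0.0903). Car12 and Jmjd6 were at the lower level in every knockdown library, as was Mxi1.

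**Figure D4:**
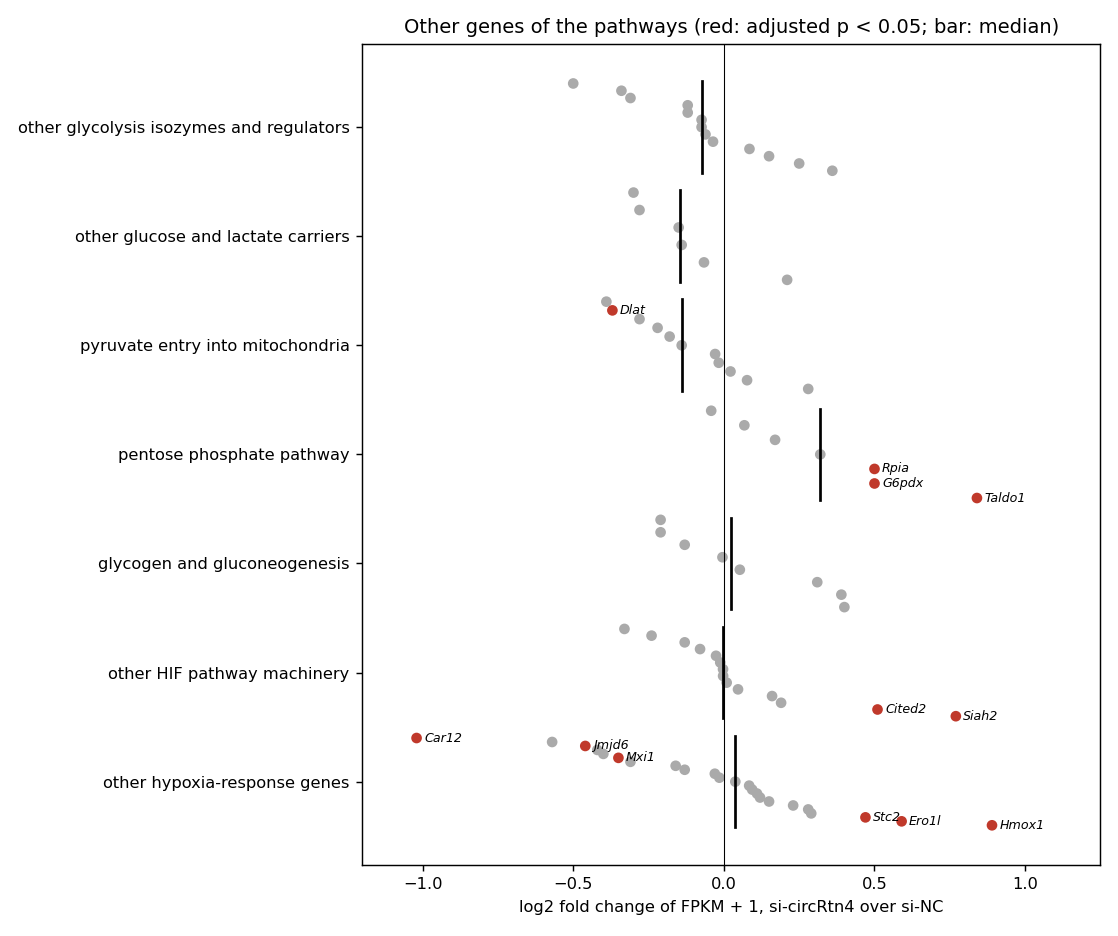
Log2 fold change of FPKM + 1 (x axis, si-circRtn4 over si-NC) of the 82 tested genes in 7 other lists of the pathways, 1 list per row, with the list's median as a bar. The 12 red, named points passed the adjusted p of 0.05; the pentose phosphate pathway has its median at 0.32, and the other medians lie between −0.14 and 0.038.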

How the data were processed

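The authors deposited 1 table of FPKM per gene with gene length and coordinates; 6 columns of other samples were not used. The submitters' processing notes name Bowtie 0.12.2, mm8 and mm9, while 98.3% of the gene coordinates equal those of GENCODE M21 (GRCm38); the counting tool is not given in the sources used here. FPKM times length gave whole reads for 100% of values. Groups came from the labels. The 12749 genes that averaged 1 FPKM or more were compared on the log2(FPKM + 1) scale by limma 3.58.1 under R 4.3.3 (trended variance, Benjamini-Hochberg adjustment over all of them). Ratios and sums were compared by two-sided exact permutation in Python 3.11.15 with scipy 1.17.1. Libraries of the same number deviated together (correlations 0.331, 0.19 and 0.226, and at most 0.00913 between different numbers). Each group had been centred on its own mean, so positive values for the same number force lower ones between different numbers. The numbers were taken as pairs from these same values, and the labels name no pairing. The fit with a block is a second reading of the same data, given where it changes a call of a member or pathway gene. 13 alternatives were run: a pseudocount of 0.1, all 28442 detected genes, TPM with and without Gm23935, quantile normalization, limma-voom on the recovered reads, the block, and each library left out in turn. An added sum of Eno1 and Eno1b was chosen after the data were seen. Scripts were tested on simulated data. Limits from 3 reads cover counting error only. The members and lists were chosen with earlier results of these data known. Members past the threshold, or without overlap and beyond 0.3 on the log2 scale, are given in full, and of the other lists up to 3 genes past the threshold in each direction.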

Additional observations from a re-analysis of the deposited data

How the results depend on the processing

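Slc2a3 and Adm passed the threshold under every alternative run, and the median log2 fold change of the members stayed between 0.027 and 0.19. The count of members that rose, 3, was 0 when all detected genes were tested, 7 with TPM, 8 with limma-voom on the recovered reads and 6 with the replicate block, and 0 to 3 with 1 library left out (0 without si-NC replicate 2 or si-circRtn4 replicate 2, 1 without si-circRtn4 replicate 3). The count that fell, 2, was 6 with the replicate block. In the other pathway lists the 8 higher genes became 4 with all detected genes, 14 with TPM, 14 with limma-voom and 13 with the block, and 2 to 8 with 1 library left out (2 without si-NC replicate 2). The 4 lower became 1, 2 with TPM and 12 with the block, and 1 to 3 with 1 library left out (1 without si-NC replicate 2). Over all genes tested, 556 were higher and 615 lower; these became 210 and 261 with all detected genes, 977 and 400 with TPM, 903 and 722 with limma-voom, 1185 and 1243 with the block, and 157 to 406 and 212 to 416 with 1 library left out. The share of calls that were higher was 47.5%, and 71.0% with TPM, which moved the median of all genes to 0.082. With TPM without Gm23935 the share was 52.3% and the median 0.021, and 4 members were higher. Members that did not pass changed sign: Gpi1 (0.072 with TPM, 0.0019 with TPM without Gm23935, 0.028 with quantile normalization, 0.0030 with limma-voom, −0.093 to 0.022 with 1 library left out), Hk1 (0.033 with TPM, −0.12 to 0.00026 with 1 left out), Pfkp (0.026 with TPM), and, with 1 left out, Gapdh (−0.86 to 0.050), Tpi1 (−0.19 to 0.032) and Ankrd37 (−0.040 to 0.31). The causes were not tested. Only 78 reads stood behind Pdk1 with si-NC and 53 behind Adm with si-circRtn4, which limits their precision.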
